A study of Mus musculus with 3 samples.

Results

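The genes described here are 8 glucocorticoid-responsive and clock genes, read in microglia sorted from mouse brain: Nr3c1, Tsc22d3, Fkbp5, Sgk1, Klf9, Txnip, Per1 and Nr1d2. They were chosen by name, as 8 of the 15635 genes listed in at least 1 of the 3 single-cell count tables, and all 8 had UMIs (counts of distinct captured mRNA molecules) in every library. They were read in the cells with more than 200 and at most 8000 genes and at most 10% mitochondrial UMIs, which were 17669 of the 18340 deposited cells. Each of the 3 libraries was 1 pool of microglia from 2 mice aged 8 weeks. The hCD33m mice carried the short isoform of human CD33 and the hCD33M mice the long isoform. Each isoform was a Rosa26 transgene under the CAG promoter with a GFP reporter, switched on by Cre from the Cx3cr1 locus, and the hCD33m line came from 1 embryonic stem cell clone. The Control mice were labelled wild type. Whether they also carried Cre in this experiment was not given in the sources used here. CD33 is an inhibitory sialic acid-binding receptor of myeloid cells. The question put to these genes was whether stress hormone or time of day could differ between the libraries. The hour of collection was not given in the sources used here, and hormone levels were not analysed here.

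Glucocorticoids, which are corticosterone in mice, cross the cell membrane and bind the glucocorticoid receptor, encoded by Nr3c1. The bound receptor leaves its Hsp90 chaperone complex, enters the nucleus and switches on genes such as Tsc22d3, Fkbp5, Sgk1, Klf9 and Per1. The hormone itself follows a daily rhythm, and it is also released in acute stress. The circadian clock is a feedback loop in which the CLOCK and BMAL1 proteins (BMAL1 is encoded by Arntl) drive the period genes, the cryptochromes and the REV-ERB repressors encoded by Nr1d1 and Nr1d2. The period and cryptochrome proteins then inhibit CLOCK and BMAL1, and the REV-ERBs repress Arntl, so that Arntl and Nr1d1 peak at opposite times of day in most tissues. Txnip, an inhibitor of thioredoxin that responds to glucose, is also raised by glucocorticoids in several cell types.

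The cells of the rule numbered 6068 in hCD33m, 5710 in hCD33M and 5891 in Control, with medians of 4881, 4216 and 4303 UMIs per cell in that order, and the libraries shared between 4 and 10 cell barcodes pairwise and 0 in all 3. Summed levels are given as UMIs per 1000000 UMIs of the library (CPM) with a 95% Poisson interval, and ratios with an exact conditional binomial interval. Both cover counting error only. With 1 library per genotype the difference between mice is inside each pool, so no test was possible and no p-value is given. Calls were made among the 8469 genes with a mean of at least 10 CPM, and a gene was called when the libraries differed by 1.5-fold or more and the interval did not include equality. The 10 microglia markers summed to 29677 CPM in hCD33m, 32152 in hCD33M and 32249 in Control, and Sall1, Tmem119 and P2ry12 were among those found in every library. The hCD33m library was labelled female and the other libraries male, yet Xist had 0 UMIs listed in hCD33m, 0 in hCD33M and 3 in Control. The Y-linked gene Ddx3y was at 94.7, 105 and 94.8 CPM in hCD33m, hCD33M and Control, so the label of the hCD33m library was not matched by its RNA. The cells had been kept cold and isolated with inhibitors of transcription and translation. Levels of the immediate early list of 19 genes nevertheless differed between libraries, with sums of 9555 CPM in hCD33m, 6875 in hCD33M and 3978 in Control.

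The sequence upstream of the members shows which elements of hormone and clock control their promoters hold. RefSeq gave 15 promoter windows for 7 of the members in build GRCm38.p6, each read here over the 250 bases before a start site. The elements searched on both strands were the E-box bound by CLOCK and BMAL1 (CACGTG), the core of the cAMP response element (TGACG), the D-box (TTATGTAA), the site of REV-ERB and ROR (AGGTCA), 1 arm of the glucocorticoid response element (AGAACA) and the FOXO site (GTAAACA). Among all 32851 windows of that length, 6.02% held the E-box, 17.8% the cAMP core, 0.819% the D-box, 14.0% the REV-ERB and ROR site, 16.1% the glucocorticoid arm and 3.17% the FOXO site. The full glucocorticoid element, with AGAACA followed after any 3 bases by TGTTCT, was in 3 of the 32851 windows. One of those 3 lay at the fifth start site of Sgk1, 189 bases before it. That window also held an E-box that shares bases with a further glucocorticoid arm at 242 bases before the start. Windows are shown with the matched letters in capitals for Sgk1, for the longest form of Tsc22d3 (the member called against Control), for both start sites of Per1 and for Nr1d2 (the clock members).
Sgk1, start site 5 (plus strand, chr10:21993640-21993889): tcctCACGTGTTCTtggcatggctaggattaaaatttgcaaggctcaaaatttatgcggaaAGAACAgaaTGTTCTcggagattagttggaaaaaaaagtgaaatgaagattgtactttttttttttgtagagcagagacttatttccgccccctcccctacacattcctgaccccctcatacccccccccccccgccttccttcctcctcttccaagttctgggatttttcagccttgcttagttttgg
Tsc22d3, start site 1 (minus strand, chrX:140600523-140600772): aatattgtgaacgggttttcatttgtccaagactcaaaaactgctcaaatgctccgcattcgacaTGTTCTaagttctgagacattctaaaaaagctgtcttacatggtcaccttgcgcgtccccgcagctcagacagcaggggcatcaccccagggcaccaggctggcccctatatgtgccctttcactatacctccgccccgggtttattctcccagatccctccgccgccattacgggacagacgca
Per1, start site 1 (plus strand, chr11:69098699-69098948): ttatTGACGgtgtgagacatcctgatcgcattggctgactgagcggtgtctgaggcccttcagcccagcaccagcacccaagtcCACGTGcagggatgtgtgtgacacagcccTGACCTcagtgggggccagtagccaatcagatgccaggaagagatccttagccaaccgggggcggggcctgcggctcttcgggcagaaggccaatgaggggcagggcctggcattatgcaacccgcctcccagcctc
Per1, start site 2 (plus strand, chr11:69099902-69100151): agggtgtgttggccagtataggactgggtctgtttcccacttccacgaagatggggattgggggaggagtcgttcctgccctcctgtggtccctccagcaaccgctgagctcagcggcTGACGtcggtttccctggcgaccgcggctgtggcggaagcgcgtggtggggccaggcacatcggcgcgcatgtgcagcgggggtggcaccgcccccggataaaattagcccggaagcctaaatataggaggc
Nr1d2, start site 1 (minus strand, chr14:18239107-18239356): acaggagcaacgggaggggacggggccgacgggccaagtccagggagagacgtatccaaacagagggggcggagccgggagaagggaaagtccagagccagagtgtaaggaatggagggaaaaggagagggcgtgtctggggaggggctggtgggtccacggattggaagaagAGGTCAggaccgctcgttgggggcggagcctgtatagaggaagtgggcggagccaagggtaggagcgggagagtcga

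Of the 3 start sites of Tsc22d3, the first, shown above, had 1 glucocorticoid arm, 185 bases before it. The second had only a cAMP core, 224 bases before it, and the third had 0 matches. The first Per1 start had an E-box 166 bases, a cAMP core 246 bases and a REV-ERB and ROR site 137 bases before it. The second Per1 start had a cAMP core 132 bases before it, and Nr1d2 had a REV-ERB and ROR site 77 bases before its start. Fkbp5 had an E-box, Txnip a FOXO site, and Klf9 a FOXO site and a cAMP core. Of the shown or searched windows of members, 0 held a D-box. A match is a description of letters and not a measured site, and the 3′ counts do not tell which start site a molecule came from.

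Of the 8 genes, Tsc22d3 was the only one called against Control, and it was higher in both transgenic libraries. Of the 8 genes, 6 passed the 10 CPM floor, and Klf9 and Per1 did not. In hCD33m over Control, 1 of the 6 was called higher and 0 lower, where 0.85% of all genes past the floor were called higher and 0.401% lower. In hCD33M over Control the members again gave 1 higher and 0 lower, against 0.614% and 0.484% of all genes. In hCD33m over hCD33M, Nr1d2 was the 1 member called higher and 0 were lower, against 0.567% and 0.224% of all genes. The median log2 ratio of the 6 members was 0.15, 0.05 and 0.14 in these comparisons, and that of all 8469 genes was 0.01, 0.01 and 0.00. The comparisons against Control share the Control library and are not independent. The members that glucocorticoids induce did not all share 1 direction over Control. Tsc22d3 was higher in both transgenic libraries, and Txnip slightly higher, with log2 ratios of 0.18 in hCD33m and 0.26 in hCD33M. The log2 ratios of Fkbp5 and Sgk1 over Control lay between -0.19 and 0.12. Of the members under the floor, Klf9 had 0.49 in hCD33m and -0.21 in hCD33M, and Per1 was lower than Control in both. Whether stress hormone had a part in these levels was not tested.

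**Figure D1:**
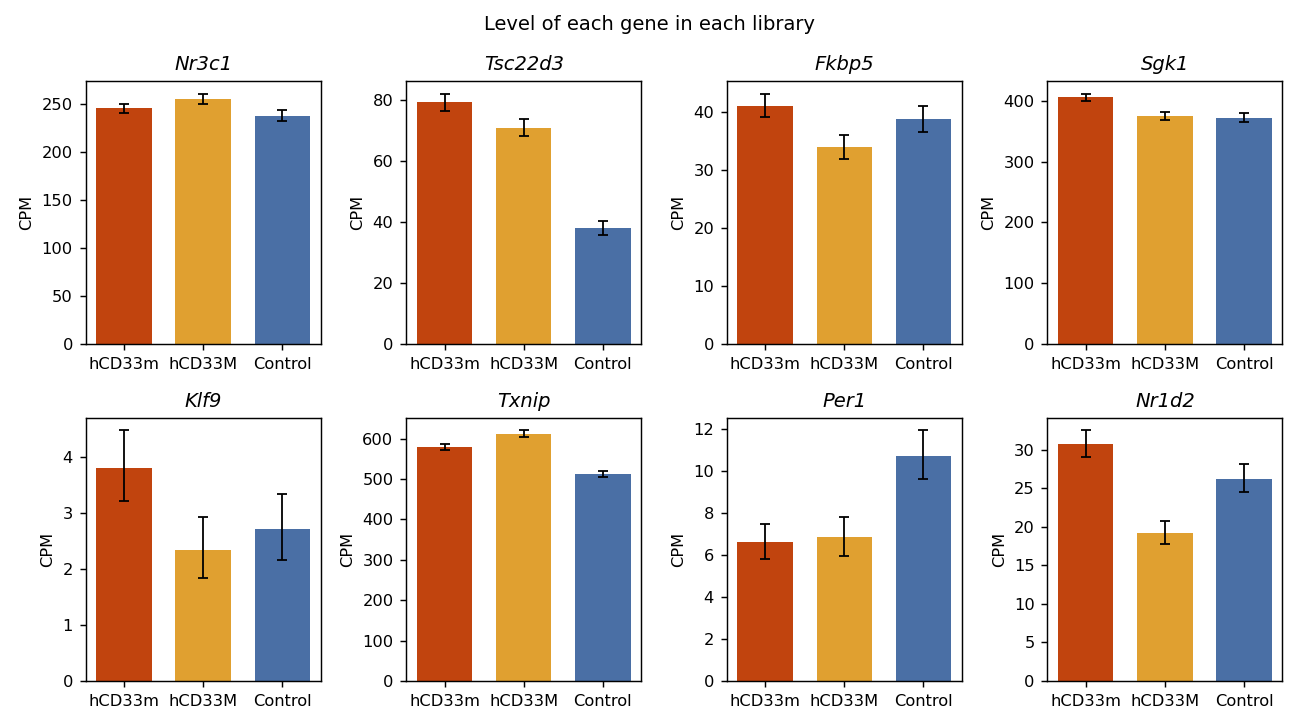
Level of each of the 8 genes in the hCD33m, hCD33M and Control libraries, in CPM (vertical axes from 0, each on its own scale). Bars are sums over all cells of the rule and lines the 95% Poisson intervals; Tsc22d3 was 79.3 CPM in hCD33m and 71.0 in hCD33M against 38.0 in Control, Per1 6.61 and 6.84 against 10.7, and Nr1d2 30.8 and 19.2 against 26.3.

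The receptor gene itself differed little between the libraries. Nr3c1 (chr18:39410545-39519421, minus strand, mm10) was at 245 CPM (241 to 250) in hCD33m and 255 CPM (250 to 261) in hCD33M, against 238 CPM (233 to 243) in Control. The log2 ratio was 0.04 (0.00 to 0.09) for hCD33m over Control and 0.10 (0.06 to 0.15) for hCD33M over Control. Of the 11 listed partners of the receptor, 9 passed the floor, and Hsp90ab1, a chaperone that holds the unbound receptor, was the only one called, in hCD33M over Control. Hsp90ab1 was at 839 CPM in hCD33m and 1115 CPM in hCD33M, against 730 CPM in Control, with a log2 ratio of 0.61 (0.59 to 0.63) for hCD33M over Control. The inducible chaperone gene Hsp90aa1 lay just under the limit in hCD33M, at 215 CPM in hCD33m, 240 in hCD33M and 161 in Control. Fkbp4, the co-chaperone that carries the bound receptor to the nucleus, was at 72.8 and 79.3 CPM in hCD33m and hCD33M, against 58.4 CPM in Control. The coactivator gene Ncoa2 was at 48.7 and 56.7 CPM, against 60.3 CPM in Control. The median log2 ratio of the 9 was 0.10 for hCD33m and 0.16 for hCD33M over Control. Hsd11b1, which encodes the enzyme that regenerates active corticosterone and was named after its values were seen, was listed with 0, 6 and 0 UMIs in hCD33m, hCD33M and Control.

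Tsc22d3 encodes GILZ, a leucine zipper protein that glucocorticoids induce in immune cells and that restrains inflammatory signalling. Tsc22d3 (chrX:140539528-140600659, minus strand) was at 79.3 CPM (76.5 to 82.2) in hCD33m and 71.0 CPM (68.2 to 74.0) in hCD33M, against 38.0 CPM (35.9 to 40.3) in Control. These came from 3058, 2337 and 1194 UMIs in hCD33m, hCD33M and Control. The fold was 2.09 for hCD33m over Control, a log2 ratio of 1.06 (0.96 to 1.16), and 1.87 for hCD33M over Control, a log2 ratio of 0.90 (0.80 to 1.00). Of the 8469 genes, 99.7% had a lower ratio than Tsc22d3 in hCD33m and 99.8% in hCD33M. Between the transgenic libraries the log2 ratio was 0.16 (0.08 to 0.24), so most of the difference separated Control from both others. Its relatives of the TSC22 family stayed under the limit. Tsc22d2 was at 116 and 102 CPM in hCD33m and hCD33M, against 90.1 CPM in Control, and Tsc22d4 at 615 and 608 CPM, against 550 CPM. Of the 9 listed relatives of the members, which include the FKBP, KLF and SGK families, 9 passed the floor and 0 were called in any of the 3 comparisons.

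Fkbp5, an Hsp90 co-chaperone that dampens the receptor in a feedback loop, did not follow Tsc22d3. Fkbp5 (chr17:28399094-28517527, minus strand) was at 41.1 CPM (39.1 to 43.2) in hCD33m and 33.9 CPM (31.9 to 35.9) in hCD33M, against 38.7 CPM (36.6 to 40.9) in Control. The log2 ratio was 0.09 (-0.02 to 0.20) for hCD33m over Control, -0.19 (-0.31 to -0.07) for hCD33M over Control and 0.28 (0.17 to 0.39) for hCD33m over hCD33M. Sgk1 encodes a kinase of ion transport and survival that glucocorticoids and mineralocorticoids induce. Sgk1 (chr10:21882184-21999903, plus strand) was at 405 CPM (399 to 412) in hCD33m and 374 CPM (368 to 381) in hCD33M, against 372 CPM (366 to 379) in Control. Its log2 ratio over Control was 0.12 (0.09 to 0.16) for hCD33m and 0.01 (-0.03 to 0.04) for hCD33M, so Sgk1 was close to the same level in hCD33M and Control. Klf9, a zinc finger repressor induced by glucocorticoids, was scarce. Klf9 (chr19:23141226-23168134, plus strand) was at 3.81 CPM (3.22 to 4.48) in hCD33m and 2.34 CPM (1.85 to 2.92) in hCD33M, against 2.71 CPM (2.16 to 3.35) in Control, from 147, 77 and 85 UMIs. The log2 ratio of Klf9 was 0.49 (0.10 to 0.90) for hCD33m over Control and -0.21 (-0.67 to 0.25) for hCD33M over Control.

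Other genes that glucocorticoids are known to raise were taken from a list of 20, of which 11 passed the floor. In hCD33m over Control 1 of the 11 was called higher and 0 lower, with a median log2 ratio of -0.04. In hCD33M over Control 0 were called, with a median of 0.09. In hCD33m over hCD33M 0 were higher and 1 was lower, which was Ddit4, a stress-induced inhibitor of mTOR signalling named after its values were seen, at 10.2 CPM in hCD33m and 16.0 CPM in hCD33M, with 11.9 CPM in Control. The called gene against Control was Errfi1, a feedback inhibitor of the EGF receptor, at 59.4 CPM in hCD33m and 51.9 CPM in hCD33M, against 37.3 CPM in Control. The metallothionein gene Mt1, a metal-binding protein raised by glucocorticoids and zinc, was lower in both transgenic libraries but under the limit, at 144 and 140 CPM against 194 CPM in Control (log2 ratio -0.43 for hCD33m and -0.47 for hCD33M). Its neighbour Mt2, named after its values were seen and under the floor, was at 3.61 and 3.43 CPM against 6.75 CPM in Control. The cell cycle inhibitor Cdkn1a was at 30.5 and 27.5 CPM against 23.6 CPM in Control. Glutamine synthetase, Glul, was at 602 and 595 CPM against 503 CPM. Within the list, some genes thus lay above Control and others below it: 5 of the 11 had a ratio above 1 in hCD33m and 7 in hCD33M. Lcn2, also named after its values were seen, was listed with 0, 44 and 457 UMIs in hCD33m, hCD33M and Control. It is a leading gene of cluster 11, a small cell cluster described later. That cluster held 41 cells of hCD33m, 23 of hCD33M and 20 of Control, so its cell numbers ran opposite to the UMIs of Lcn2.

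Txnip was slightly higher in both transgenic libraries and did not reach the limit. Txnip (chr3:96557957-96561883, plus strand) was at 580 CPM (572 to 587) in hCD33m and 613 CPM (604 to 621) in hCD33M, against 512 CPM (504 to 520) in Control. The log2 ratio was 0.18 (0.15 to 0.21) for hCD33m and 0.26 (0.23 to 0.29) for hCD33M over Control. Of the 8 listed genes of its pathway, 8 passed the floor and 1 was called higher against Control, in hCD33m and in hCD33M: Arrdc3, an arrestin domain protein of the same family as Txnip. Arrdc3 was at 48.7 and 46.3 CPM in hCD33m and hCD33M, against 27.2 CPM in Control, with log2 ratios of 0.84 (0.72 to 0.96) and 0.77 (0.65 to 0.89). Arrdc4, the relative that glucose raises together with Txnip, was at 12.3 and 11.6 CPM against 9.43 CPM. Mlx, the partner of the glucose-sensing factors, was at 34.2 CPM in both transgenic libraries against 29.5 CPM in Control, and the glucose-sensing factor gene Mlxipl was at 137 and 146 CPM against 146 CPM. The list's median log2 ratio was 0.04 for hCD33m and 0.07 for hCD33M.

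**Figure D2:**
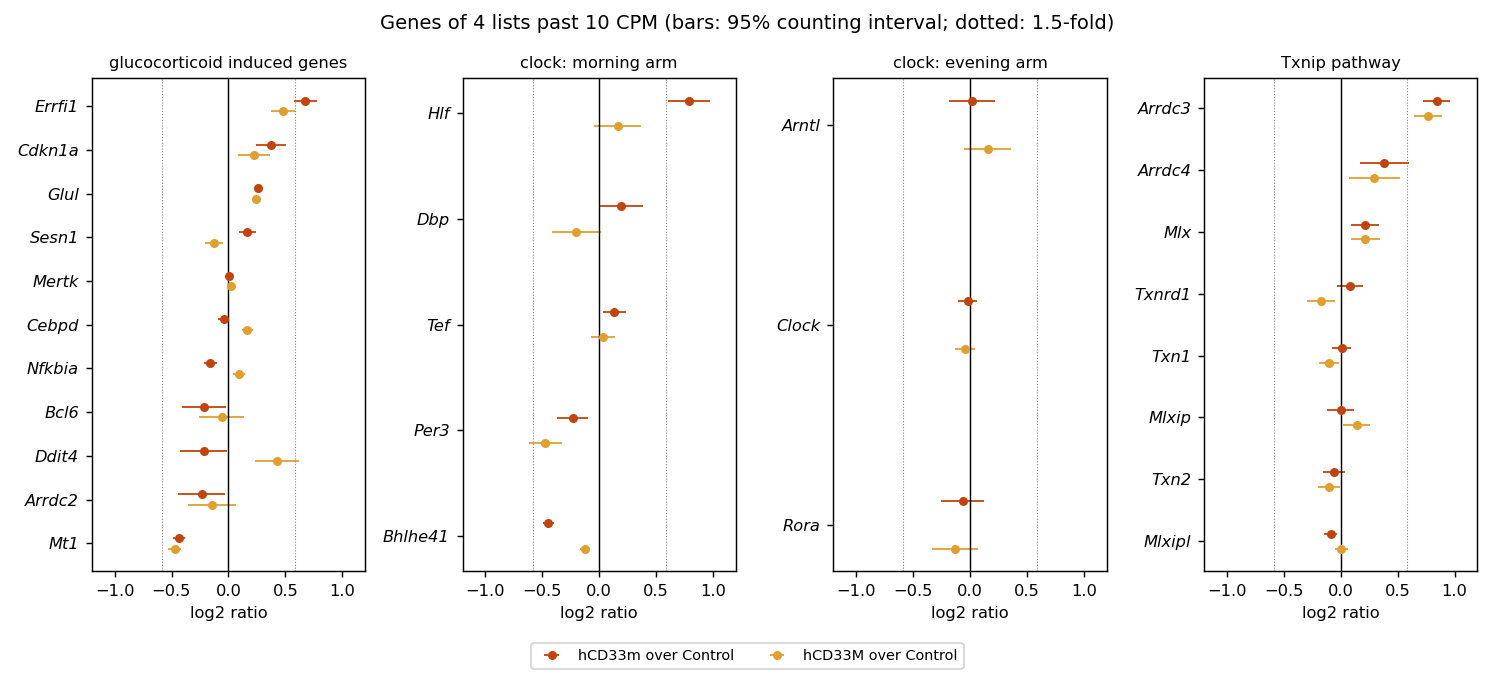
Log2 ratio over Control of the genes past 10 CPM in 4 lists, with hCD33m and hCD33M as separate points, 95% counting intervals as bars and 1.5-fold as dotted lines. Of the glucocorticoid induced genes, Errfi1 in hCD33m lies past the dotted line, as do Hlf of the morning clock arm in hCD33m and Arrdc3 of the Txnip pathway in both.

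The clock members differed in ways that did not share 1 direction. Per1, a period gene driven by the clock and acutely by glucocorticoids and cAMP, was lower in both transgenic libraries. Per1 (chr11:69095217-69109960, plus strand) was at 6.61 CPM (5.83 to 7.48) in hCD33m and 6.84 CPM (5.97 to 7.79) in hCD33M, against 10.7 CPM (9.62 to 11.9) in Control, from 255, 225 and 337 UMIs. Its log2 ratio was -0.70 (-0.94 to -0.46) for hCD33m and -0.65 (-0.90 to -0.40) for hCD33M over Control, but its mean was under the floor and it was not called. With the 5154, 4236 and 4434 cells of hCD33m, hCD33M and Control that had at least 1600 UMIs thinned to that depth and the shallower cells left out, the ratios of Per1 were -0.34 (-0.90 to 0.21) and -0.14 (-0.71 to 0.42), and these wider intervals included 0. Nr1d2, which encodes the repressor REV-ERB beta, was called between the transgenic libraries. Nr1d2 (chr14:18204054-18239127, minus strand) was at 30.8 CPM (29.0 to 32.6) in hCD33m and 19.2 CPM (17.7 to 20.8) in hCD33M, against 26.3 CPM (24.5 to 28.1) in Control, from 1186, 632 and 825 UMIs. Its log2 ratio was 0.68 (0.54 to 0.82) for hCD33m over hCD33M, 0.23 (0.10 to 0.36) for hCD33m over Control and -0.45 (-0.60 to -0.30) for hCD33M over Control. Nr1d2 thus had hCD33m at the top, Control between and hCD33M at the bottom, whereas Per1 had Control alone at the top.

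The morning arm of the clock, meaning genes that CLOCK and BMAL1 drive, had 5 of 11 genes past the floor and the evening arm 3 of 6. In the morning arm, 1 of 5 was called higher and 0 lower in hCD33m over Control, 0 in hCD33M over Control, and 1 higher and 0 lower in hCD33m over hCD33M. That gene was Hlf, a PAR bZip factor, at 20.5 CPM (19.1 to 22.0) in hCD33m and 13.3 CPM (12.1 to 14.6) in hCD33M, against 11.9 CPM (10.7 to 13.1) in Control. The other PAR bZip genes were closer: Dbp was at 13.6 and 10.4 CPM in hCD33m and hCD33M against 11.9 CPM in Control, and Tef at 50.2 and 46.9 CPM against 45.8 CPM. Per3 was at 24.3 and 20.5 CPM against 28.5 CPM in Control. Bhlhe41, a repressor of the clock loop that is abundant in microglia, was at 196 and 245 CPM against 267 CPM in Control. Under the floor, and named after their values were seen, were Nr1d1, the REV-ERB alpha gene, and Ciart, a circadian repressor. Nr1d1 was at 3.22 CPM (2.67 to 3.83) in hCD33m and 1.40 CPM (1.02 to 1.86) in hCD33M, against 2.36 CPM (1.85 to 2.96) in Control, which is the order of Nr1d2. Ciart was at 1.89 CPM in hCD33m and 1.03 CPM in hCD33M, against 0.892 CPM in Control, from 73, 34 and 28 UMIs. Between the transgenic libraries, the log2 ratio of hCD33m over hCD33M was 0.39 (0.19 to 0.59) for Dbp, 0.24 (0.10 to 0.39) for Per3 and -0.32 (-0.37 to -0.28) for Bhlhe41. The rest of the list under the floor had intervals that included 0: the ratio was -0.11 for Per2, -0.25 for Cry1, -0.25 for Cry2 and 0.03 for Bhlhe40. Of the 5 genes past the floor, 4 were higher in hCD33m than in hCD33M, and Bhlhe41 was lower. The median log2 ratio of the 5 was 0.24. Under the floor, Nr1d1 and Ciart were also higher in hCD33m than in hCD33M, with intervals above 0. Over Control the 5 genes were more divided: 3 were higher in hCD33m and 2 in hCD33M, with medians of 0.13 and -0.12. Whether the hour of collection had a part in these differences was not tested.

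The evening arm, a list with Arntl, Clock and Rora past the floor, had 0 of 3 genes called in any of the 3 comparisons. Morning and evening are labels of the lists and not measured hours. Whether these genes cycle in these cells was not tested. Arntl was at 11.7 CPM in hCD33m and 12.9 CPM in hCD33M, against 11.6 CPM in Control. Clock was at 67.3 and 66.2 CPM against 68.3 CPM in Control, and Rora, an activator of Arntl, at 12.99 and 12.37 CPM against 13.57 CPM. The log2 ratio of Arntl was -0.14 (-0.33 to 0.06) for hCD33m over hCD33M, an interval that reaches from 0.33 lower to 0.06 higher. Nfil3, a repressor that opposes the PAR bZip factors, was under the floor and is named after its values were seen. It was at 5.76 CPM in hCD33m and 7.29 CPM in hCD33M, against 4.05 CPM in Control, with log2 ratios over Control of 0.51 (0.19 to 0.84) and 0.85 (0.53 to 1.17). Of the clock kinases and F-box genes, 4 of 5 passed the floor and 0 were called. Csnk1d was at 81.8 and 72.0 CPM against 73.6 CPM in Control.

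Cell states were formed without the members and without the listed genes, so that the levels in them were not used to draw them. The cells fell into 12 clusters, of which 0, 1, 3, 5, 6 and 8 were microglia-like, 9 was like border-associated macrophages (led by Pf4, Ms4a7 and Cd163) and 5 were left unnamed. Cluster 2 and cluster 4 held cells of few UMIs, with medians of 1126 and 722 UMIs. Cluster 7 was led by globin genes and Cst7, cluster 10 by Mmp12 and Ccl4, and cluster 11 by S100a9, S100a8 and Camp. Cluster 7 held 166 cells of hCD33m, 121 of hCD33M and 120 of Control. Its globin lead came almost only from hCD33M, because the erythroid markers had 5, 7281 and a listed 0 UMIs in these libraries. Each of the 8 members differed by at least 1.5-fold between its lowest and its highest cluster over all libraries. Those clusters were picked as the extremes of the 12 for each gene, and some held few UMIs of the member. The share of all genes that pass this rule was not taken, so the count does not set the members apart. Tsc22d3 was highest in cluster 9, at 126 CPM, in cluster 11, at 118 CPM, and in cluster 6, the microglia-like cells led by Tcim, Lpl and Emp3, at 109 CPM. Its levels in the large microglia-like clusters 0, 1 and 3 were 58.3, 57.4 and 61.3 CPM, and cluster 4 was lowest at 29.8 CPM.

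The other members had other patterns over the clusters. Nr3c1 lay between 209 and 282 CPM in the microglia-like clusters 0, 1, 3, 6 and 8 and between 123 and 136 CPM in clusters 2, 4, 5 and 11. Fkbp5 was highest in cluster 7, at 58.7 CPM, and lowest in cluster 11, at 12.9 CPM, the cluster in which Tsc22d3 was second. Sgk1 was highest in cluster 10, at 501 CPM, and lowest in cluster 11, at 165 CPM. Klf9 was highest in cluster 11, at 17.5 CPM, against 2.97 CPM in cluster 0. The receptor's targets were thus not high in the same clusters. Txnip was highest in cluster 9, at 690 CPM, and lowest in cluster 10, at 387 CPM. Per1 was highest in clusters 10 and 4, at 17.8 and 16.8 CPM from 16 and 18 UMIs, against 8.10 CPM in cluster 0. Nr1d2 was highest in cluster 4, at 52.1 CPM from 56 UMIs, and then in cluster 0, at 30.5 CPM, where it was among the 10 leading genes although it had not been used to form the clusters.

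**Figure D3:**
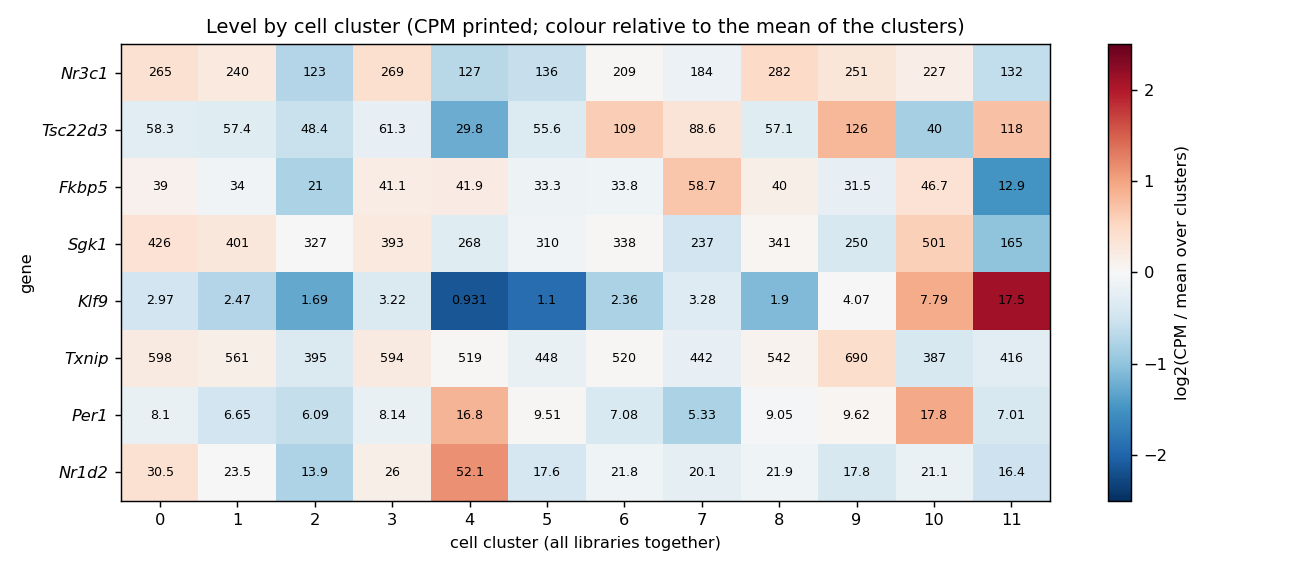
Level of each gene (rows) in each of the 12 cell clusters (columns), all libraries together. The printed values are CPM, and the colour is the log2 of CPM over the mean of the clusters; Tsc22d3 is highest in cluster 9 (126 CPM) and Klf9 in cluster 11 (17.5 CPM), where Fkbp5 (12.9 CPM) and Sgk1 (165 CPM) are lowest.

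Shares of the clusters differed between libraries. Cluster 9 held 115 cells of hCD33m, 47 of hCD33M and 66 of Control, and cluster 0 held 29.7%, 20.9% and 20.2% of the cells of hCD33m, hCD33M and Control. The ratios were therefore taken again within each of the 9 clusters with at least 50 cells of every library. Tsc22d3 was higher than Control in 9 of 9 clusters in hCD33m and in 9 of 9 in hCD33M, with the interval above 0 in all of these. The log2 ratio of Tsc22d3 over Control spanned 0.64 to 2.40 in hCD33m, with a median of 1.16, and 0.74 to 1.77 in hCD33M, with a median of 0.95. In cluster 6, for example, Tsc22d3 was at 146 CPM in hCD33m and 138 CPM in hCD33M against 60.8 CPM in Control, and in cluster 3 at 70.4 and 69.6 CPM against 37.3 CPM. In cluster 9, which held too few hCD33M cells for a ratio, Tsc22d3 was at 140 and 127 CPM against 97.8 CPM. Cluster 6 exceeded clusters 0, 1 and 3 in each library.

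Per1 lay below Control in 9 of 9 clusters in both transgenic libraries, with medians of -0.59 in hCD33m and -0.71 in hCD33M, but the interval left out 0 in only 2 clusters of each. Those values rest on few UMIs: cluster 3, the deepest, had 88 UMIs of Per1 in hCD33m and 95 in hCD33M, against 108 in Control. Nr1d2 was higher in hCD33m than in hCD33M in 8 of 9 clusters, with a median of 0.64 and the interval above 0 in 3. In cluster 0 Nr1d2 was at 34.5 CPM in hCD33m and 23.4 CPM in hCD33M, with 31.6 CPM in Control, and in cluster 3 at 33.0 and 18.8 CPM with 26.1 CPM in Control. Klf9, with few UMIs, had a ratio over Control in 6 clusters in hCD33m, spanning -0.36 to 2.53 with a median of 0.56, and in 5 in hCD33M, with a median of -0.19. Txnip was above Control in 8 of 9 clusters in hCD33m and 9 of 9 in hCD33M, with medians of 0.16 and 0.30. Fkbp5 was below Control in 9 of 9 clusters in hCD33M, with a median of -0.24 and the interval below 0 in 1. Nr3c1 had medians of 0.01 and 0.07 in hCD33m and hCD33M. Sgk1 had medians of 0.09 and 0.00.

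**Figure D4:**
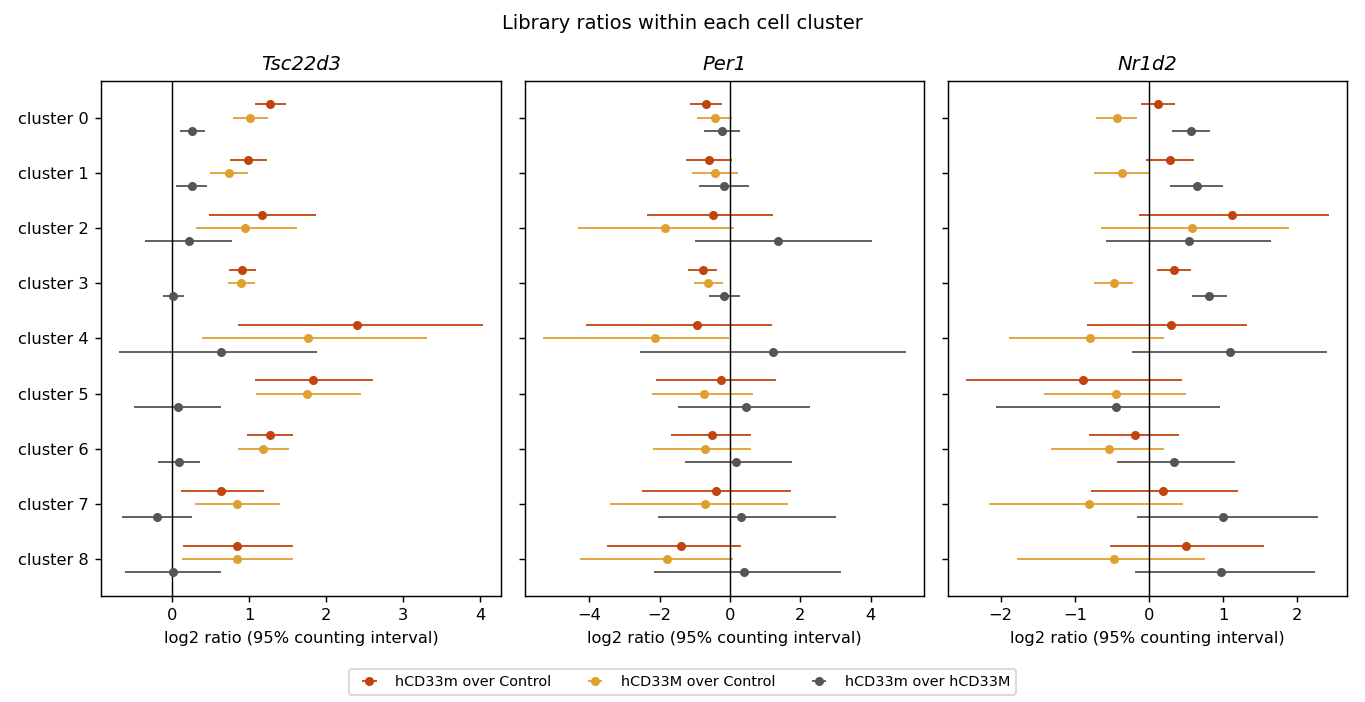
Log2 ratio of Tsc22d3, Per1 and Nr1d2 within each of the 9 clusters with at least 50 cells of every library, with 95% counting intervals as bars. Tsc22d3 lies right of 0 in all 9 clusters for hCD33m and hCD33M over Control, Per1 lies left of 0 in all 9 for both, and Nr1d2 lies right of 0 in 8 of 9 for hCD33m over hCD33M.

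Immediate early genes moved with the same libraries as Tsc22d3. Of the 19 listed, 16 passed the floor, and 14 were called higher in hCD33m over Control, 11 in hCD33M over Control and 7 in hCD33m over hCD33M, with 0 lower. Fos, the gene of an AP-1 subunit, was at 532 CPM in hCD33m and 252 CPM in hCD33M, against 59.8 CPM in Control. The Kruppel-like factors Klf2 and Klf4 were at 188 and 111 CPM in hCD33m and 86.1 and 55.8 CPM in hCD33M, against 24.7 and 10.9 CPM in Control. Fosb was at 285 and 139 CPM in hCD33m and hCD33M, against 42.6 CPM. These genes, which had the largest ratios of hCD33m over Control past the floor, separated hCD33m from hCD33M, whereas Tsc22d3 differed little between them. The contrast did not hold for the whole list, as only 7 of the 16 were called between the transgenic libraries. Jund, named after its values were seen, had log2 ratios of 0.90 and 0.59 over Control in hCD33m and hCD33M. For hCD33m over hCD33M its ratio was 0.30. The microglia-like cells were thinned to 1600 UMIs each and divided by whether a Fos UMI remained. With a Fos UMI were 2073 of the hCD33m cells, 1060 of the hCD33M cells and 321 of the Control cells, and without one 2589, 2831 and 3661, while 129, 171 and 146 shallower cells were left out.

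In cells without a Fos UMI, Tsc22d3 was at 76.8 CPM (68.6 to 85.7) in hCD33m and 71.3 CPM (63.7 to 79.5) in hCD33M, against 35.9 CPM (31.2 to 41.0) in Control. The log2 ratios there were 1.10 (0.84 to 1.36) and 0.99 (0.737 to 1.2497), as large as over all cells. In cells with a Fos UMI Tsc22d3 was at 94.4 CPM in hCD33m and 79.0 CPM in hCD33M, against 60.4 CPM in Control, with log2 ratios of 0.64 (0.11 to 1.23) and 0.39 (-0.18 to 1.00). Cells with over cells without a Fos UMI gave a log2 ratio of 0.30 (0.07 to 0.53) in hCD33m, 0.15 (-0.15 to 0.44) in hCD33M and 0.75 (0.16 to 1.30) in Control. Dusp1, a phosphatase gene that both immediate early signalling and glucocorticoids raise and that was named after its values were seen, was at 102 CPM in hCD33m and 58.7 CPM in hCD33M, against 19.6 CPM in Control, in cells without a Fos UMI. A cell without a Fos UMI after thinning may still hold Fos RNA that was not captured. Arrdc3, the gene of the Txnip pathway called in both comparisons against Control, was at 44.2 and 38.4 CPM against 26.3 CPM in Control in these cells. Nr1d2 kept its order in cells without a Fos UMI, at 33.8 CPM in hCD33m and 19.6 CPM in hCD33M, with 27.1 CPM in Control. Per1 was at 5.79 CPM (3.71 to 8.62) and 7.06 CPM (4.83 to 9.97) against 9.22 CPM (6.93 to 12.03) in Control, with overlapping intervals.

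**Figure D5:**
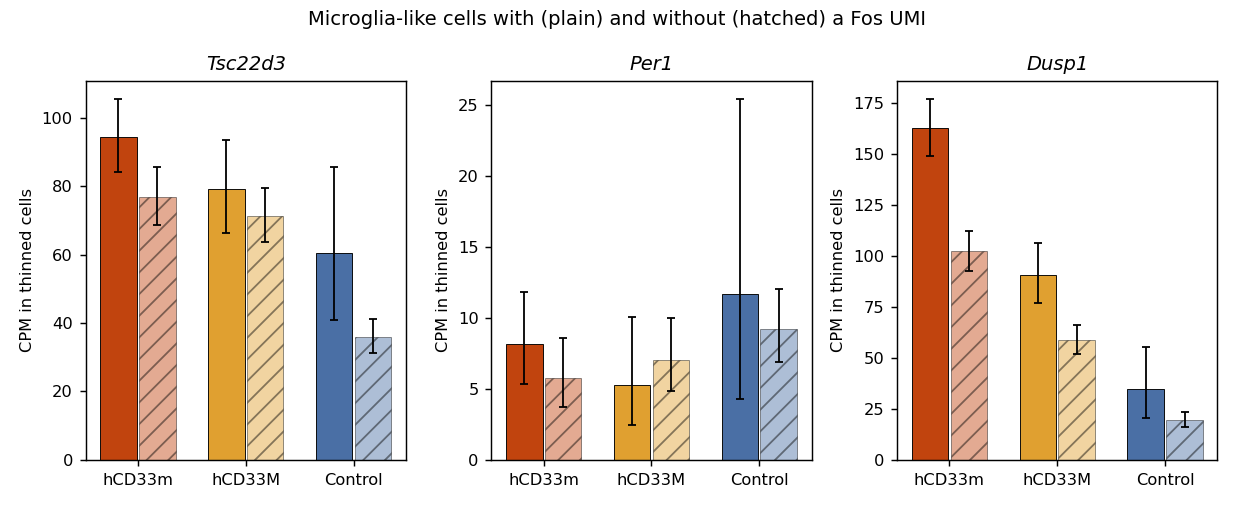
Levels of Tsc22d3, Per1 and Dusp1 in microglia-like cells thinned to 1600 UMIs, for each library, in cells with a Fos UMI (plain bars) and without one (hatched bars), in CPM with 95% Poisson intervals. In the hatched bars Tsc22d3 is 76.8 CPM in hCD33m and 71.3 CPM in hCD33M against 35.9 CPM in Control.

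Tsc22d3 varied less with depth per cell than between the transgenic libraries and Control. When the microglia-like cells of each library were ranked by UMIs and divided into 3 equal classes, Tsc22d3 was at 89.7, 81.5 and 71.7 CPM in the low, middle and high class of hCD33m. It was at 80.8, 67.7 and 67.6 CPM in those of hCD33M and at 42.3, 39.7 and 34.02 CPM in those of Control. The shallowest cells thus had the highest level in each library, and every class of both transgenic libraries was above every class of Control. Nr3c1 ran the other way, at 233, 247 and 259 CPM in hCD33m, 209, 266 and 274 CPM in hCD33M and 207, 244 and 259 CPM in Control. Per1 was at 7.8, 5.3 and 6.5 CPM in hCD33m and at 6.3, 7.2 and 7.2 CPM in hCD33M, against 8.8, 9.1 and 11.3 CPM in Control.

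The genes most like each member were sought over 18 sums, of 6 microglia-like clusters in 3 libraries, by Pearson's r of log2(CPM + 1). The candidates were the 6562 genes with a mean of at least 20 CPM over these sums. The sums of 1 library share that library's depth and handling, so r is a description. For Tsc22d3 the closest were Klf2 (r = 0.87), Klf6 (0.87) and Klf4 (0.83), all of the immediate early list, and its r with Fos was 0.79 and with Per1 -0.71. For Fkbp5 they were Ppm1g (0.86), Zrsr1 (0.77) and Hcfc1 (0.76), and the r of Fkbp5 with Tsc22d3 was -0.13. For Sgk1 they included Foxo3 (0.90) and Mfng (0.89), and for Klf9 they were Erf (0.84), Syap1 (0.82) and Rbm7 (0.82). Klf9 and Per1, with means of 2.47 and 8.09 CPM over the sums, were not candidates, so they could not be listed as nearest genes. Tsc22d3, Fkbp5 and Sgk1 were candidates and were not among the nearest genes of each other or of Klf9. Only the 3 nearest of the 6562 candidates were listed for each member, so this absence does not show whether members moved together. Between members, r was -0.10 for Tsc22d3 with Sgk1 and 0.14 for Fkbp5 with Sgk1. For Klf9 it was 0.55 with Fkbp5, 0.44 with Sgk1 and 0.36 with Tsc22d3. For Nr3c1 the closest were Pip4k2a (0.97), Bach1 (0.97) and Rhoq (0.96), and for Txnip Gsk3a (0.91), Josd2 (0.91) and Gna15 (0.90), with r = 0.70 between Nr3c1 and Txnip. For Per1 they were Gnaq (0.85), March8 (0.84) and Stx6 (0.82). For Nr1d2 they were Arf3 (0.84), Chst1 (0.79) and Vps33a (0.78), and the r of Nr1d2 with Per1 was 0.05.

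Markers of other cell types differed between the libraries as well. The 5 neutrophil markers summed to 290 CPM in hCD33m, 368 in hCD33M and 602 in Control, with Retnlg and Mmp9 listed at 0 in Control. The 7 border-associated macrophage markers summed to 107, 84.0 and 94.8 CPM. The 5 erythroid markers summed to 0.130 CPM in hCD33m, 221 in hCD33M and a listed 0 in Control. The T cell markers Cd3e and Trbc2, the endothelial marker Cldn5 and the oligodendrocyte marker Mog were listed at 0 in every library. Other markers of these types did have UMIs. The 5 endothelial markers summed to 26.8, 30.3 and 28.2 CPM in hCD33m, hCD33M and Control, and the 5 oligodendrocyte markers to 66.1, 63.0 and 64.3 CPM. The 6 T or NK cell markers summed to 0.259 CPM in hCD33m and a listed 0 in hCD33M and Control. In microglia-like cells alone, Tsc22d3 was at 76.8 CPM in hCD33m and 69.3 CPM in hCD33M, against 36.7 CPM in Control, as large a difference as in all cells. In the paper, hybridization on brain sections gave a higher density of Fos-positive microglia in hCD33m than in wild-type mice, and only a trend for Klf2. Tsc22d3 was not among the probes used there. The paper also reports an independent single-cell experiment on the same genotypes. In it the genes of the paper's hCD33m-enriched cluster, which include Fos and Klf2, were again higher in hCD33m. That experiment was not read here. Whether stress hormone, the hour of collection or handling had a part in the difference of Tsc22d3 was not tested. None of them can be told apart from genotype with 1 pool per genotype.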

How the data were processed

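The authors isolated CD11b+ CD45low Cx3cr1+ cells from 2 mice per genotype, prepared 1 10x Chromium library per pool and counted reads with Cell Ranger on mm10. Deposited were 3 tables of raw UMI counts, 1 per library, which the authors had passed through Seurat with more than 200 genes per cell and genes found in at least 3 cells, so a gene missing from a table, given here as listed at 0, may still have had UMIs in fewer cells than that. The depth was 38555874 UMIs in hCD33m, 32899506 in hCD33M and 31396051 in Control over the kept cells (at least 200 UMIs). No doublet caller was run, and the limit of 8000 genes was the only guard. Cells were clustered with scanpy 1.11.5 and leidenalg 0.10.2 on 2000 variable genes, which left out the members, the listed genes and mitochondrial genes, with 15 components, 20 neighbours and resolution 0.8. A cluster with at least 3 detected markers of a type could be named after it, and one with markers of several types or with few UMIs was left unnamed.

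No test was run, because each genotype had 1 library: UMI sums were compared by ratios with exact intervals (scipy 1.17.1), and the rule of call is given in the report. The ratio, interval and call were tested on simulated data. Named genes are the members, up to 4 genes of each of the 10 lists with the largest ratio of hCD33m over Control, all genes of the clock arms past the floor and the 3 genes most like each member; others are said to be chosen after their values were seen. Some genes that this rule names are not reported here. The members and lists were chosen with earlier results of these data known. Positions come from the GENCODE annotation of mm10 and promoters from RefSeq.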

Additional observations from a re-analysis of the deposited data

How the results depend on the processing

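The 1 called member of each comparison was the same, Tsc22d3 over Control and Nr1d2 in hCD33m over hCD33M, with microglia-like cells only, at least 2000 UMIs per cell, limits of 5% mitochondrial UMIs or 4000 genes, TMM factors (edgeR 4.0.16), median-of-ratios factors, CPM without mitochondrial, ribosomal protein and immediate early genes, cells thinned to 1600 UMIs, a mean over cells, and a floor of 20 CPM. At the lower fold limit that was tried, hCD33M over Control had 2 members (Nr1d2 lower in addition), and at a fold of 2 it had 0, as had hCD33m over hCD33M. Without the floor each comparison had 2 members, with Per1 lower against Control and Klf9 higher in hCD33m over hCD33M. With a floor of 5 CPM the 2 comparisons against Control had 2 members each, again with Per1. Over the 8 pathway lists, the called genes numbered 17 in hCD33m over Control, 13 in hCD33M over Control and 9 in hCD33m over hCD33M. Most were of the immediate early list, which gave 14, 11 and 7 of them in that order. The others over Control were Errfi1, Hlf and Arrdc3 in hCD33m, and Hsp90ab1 and Arrdc3 in hCD33M. In hCD33m over hCD33M they were Hlf, which was higher, and Ddit4, which was lower. The called genes of all 8 lists numbered 24 and 16 in hCD33M over Control and hCD33m over hCD33M at the lower fold limit. At a fold of 2 they numbered 10, 7 and 3 in the 3 comparisons in that order, and without the floor 20 in hCD33M over Control and 16 in hCD33m over hCD33M. The changed limits account for these counts, and the share over all genes was not taken at those limits. Of the log2 ratios of members under the other settings, 215 stayed within the interval of the reported value and 25 did not, and 0 called ratios changed sign. The ratio of Tsc22d3 over Control ranged from 1.03 to 1.22 in hCD33m and from 0.83 to 0.99 in hCD33M, and that of Nr1d2 in hCD33m over hCD33M from 0.61 to 0.81. Per1 ranged from -0.75 to -0.34 in hCD33m and from -0.92 to -0.14 in hCD33M over Control. The ratios of Fkbp5 in hCD33m over Control (-0.01 to 0.10) and Sgk1 in hCD33M over Control (-0.03 to 0.03) took either sign. The 8 members each still differed by at least 1.5-fold between their extreme clusters at resolutions 0.4 and 1.2, and Tsc22d3 stayed above Control in every cluster compared. Both also held when the members and lists, except immediate early and sex-linked genes, were allowed among the variable genes. In that setting 0 members were among the variable genes, so it does not show what clusters shaped by the members would give.

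No paired analysis was possible because each genotype had 1 library. Depth limits Klf9 and Per1 most, with 77 to 337 UMIs per library, and differences between mice could not be measured at all.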
